A study of Homo sapiens with 3 samples.

Results

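The genes described here encode histones, the proteins around which DNA is wound in chromatin. They were chosen by symbol from the protein-coding genes of the GENCODE v44 annotation, as the core genes with symbols beginning H1-, H2AC, H2BC, H3C or H4C and the variant genes H2AX, H2AZ1, H2AZ2, H3-3A, H3-3B and MACROH2A1, and each had to have a replicate 2 cluster listed under its Ensembl identifier. The choice used the presence of a replicate 2 cluster and no fold change. It gave 32 genes of the 10872 genes with a replicate 2 cluster, 26 of them core and 6 variant, out of 80 annotated genes with such symbols. The rule left 5 H1, 7 H2A, 9 H2B, 2 H3 and 3 H4 genes among the core. Core is used throughout as a label for this symbol group, and it takes in the H1 linker histones, which are not part of the nucleosome core.

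RBM17 is an RNA-binding protein of the spliceosome. Its contacts with RNA were mapped by enhanced crosslinking and immunoprecipitation followed by sequencing (eCLIP-seq) in K562 cells, a human line derived from a chronic myeloid leukaemia, with no other treatment or genotype. Cells were crosslinked with ultraviolet light, RNA was fragmented, RBM17 was precipitated with an antibody mixture, and the attached RNA fragments were sequenced in 2 replicates beside 1 size-matched input, the RNA of the same size range taken before precipitation. All 8 of the markers looked up for K562 cells had a replicate 2 cluster and 0 of 6 markers of other lineages did.

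Core histone mRNAs are made mostly during S phase, when DNA is copied. Their genes as a rule lack introns, and the typical mRNA ends in a conserved stem-loop bound by SLBP in place of a poly(A) tail. Splicing has no part in making mRNAs of this kind. Variant histones are placed in chromatin outside replication as well, and most of their genes have introns and give polyadenylated mRNAs. A splicing factor would thus meet 2 kinds of transcript that encode proteins of 1 family, and the comparison here asks how RBM17 signal was spread over them.

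The stem-loops are shown because they are a feature of the intronless, non-polyadenylated kind of mRNA. A match alone does not show how the mRNA of a gene ends. The 16-base pattern searched was GG, any 2 bases, CTT, any base, T, any base, AG, any 2 bases and CC. Read on the transcript strand of the GENCODE v44 canonical transcript only, it was found in 25 of the 26 core genes, all but H1-10, and in 1 of the 6 variant genes, H2AX. In 24 of these core genes it lay at most 6 bases from the transcript's end. The exception was H2BC21, where 1729 bases followed. Among protein-coding genes outside the symbol rule 0.361% held the pattern (72 of 19966). The stem-loop is printed in capitals with its flanking bases in lower case, and the hg38 position is that of the capitals.
H1-4 (chr6:26157095-26157110, + strand): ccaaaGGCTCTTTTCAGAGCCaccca
H2AC11 (chr6:27133515-27133530, + strand): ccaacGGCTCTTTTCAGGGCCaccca
H2BC12 (chr6:27146366-27146381, - strand): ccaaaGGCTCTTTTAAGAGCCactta
H3C12 (chr6:27890320-27890335, - strand): ccaaaGGCTCTTTTCAGAGCCactta
H4C8 (chr6:26285131-26285146, - strand): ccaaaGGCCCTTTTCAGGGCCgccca
H2AX (chr11:119094898-119094913, - strand): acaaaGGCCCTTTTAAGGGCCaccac
The form in H1-4 and H3C12 was the commonest, in 15 core genes, and the form in H2BC12 was in 5. The form in H4C8 was in 3 genes, all of them H4. H2AX holds a stem-loop 1024 bases before the end of its annotated transcript, and it alone of the variant genes has no intron in its canonical transcript. The canonical transcripts of the other 5 variant genes have introns and those of the 26 core genes have none. Other annotated transcripts were not examined for introns. The annotated exons of H2BC15 cover 4265 bases and its canonical transcript 542.

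The 2 replicates carry different measurements. For replicate 1, each cluster (a stretch of crowded reads) has a log2 fold of RBM17 eCLIP over the input and a -log10 p for that excess, and no read count. For replicate 2, each cluster has a number of reads and the p of the cluster caller, which does not refer to the input. The remaining list gives the reproducible peaks, for which 1 log2 fold and 1 -log10 p stand for the replicates jointly. A replicate 1 cluster is called enriched here at a log2 fold of at least 3 with a -log10 p of at least 3, and below the input at a log2 fold under 0. The -log10 p was 0 at all 15562 replicate 1 clusters below the input, so a value below the input carries no p. With 1 value per replicate and 1 input, no test between groups of genes was possible, because genes and clusters are not replicates. The 95% intervals given with shares and medians (Clopper-Pearson and order-statistic) cover counting error only.

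Replicate 2 had 1336569 reads in clusters, of which 3689 (0.276%) were listed under the 32 histone genes, or 3641 (0.272%) when the overlapping H3C4 and H2AC7 clusters are counted once. These genes held 165 of the 119066 replicate 2 clusters, 184 of the 137095 replicate 1 clusters and 9 of the 866 reproducible peaks. A total of 25 of the 32 genes had clusters in both replicates, a share similar to that over all genes (8524 of 10872). Cluster positions are hg19, since the last cluster on chromosome 1 ends at 249211903, beyond the hg38 chromosome length of 248956422. Because the reads come from a whole culture, more cells with an mRNA and more mRNA per cell cannot be told apart.

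Core histone genes lay mostly below the input and variant genes mostly above it. None of the 26 core genes had a reproducible peak, which allows a share of up to 11.5% by 3 counts of 26 and 13.2% by Clopper-Pearson, and 3 of the 6 variant genes had at least 1 (50.0%, 95% interval 11.8 to 88.2), beside 4.07% of all genes with a replicate 2 cluster. In replicate 1, 39 of 68 core clusters were below the input (57.4%, 44.8 to 69.3), against 22 of 116 variant clusters (19.0%, 12.3 to 27.3) and 11.5% of clusters in all gene spans. Of the core clusters, 0 of 68 were enriched, which allows up to 4.41% by 3 counts of 68 and 5.28% by Clopper-Pearson, while 30 of 116 variant clusters were (25.9%, 18.2 to 34.8), beside 5.64% over all gene spans. The median log2 fold was -0.41 over core clusters (95% interval -0.86 to 0.30) and 1.77 over variant clusters (1.19 to 2.34). These intervals treat the clusters of a gene as independent, so they do not test the 2 groups. Medians by gene overlapped, from -1.81 (H4C11) to 0.87 (H2BC11) in core genes and from 0.19 (MACROH2A1) to 4.36 (H3-3B) in variant genes. The median of all replicate 1 clusters was 1.51. These counts pool genes of very unequal weight, and 4 of the 6 variant genes held all 30 enriched clusters, 17 of them in H2AZ1 and H3-3B.

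**Figure D1:**
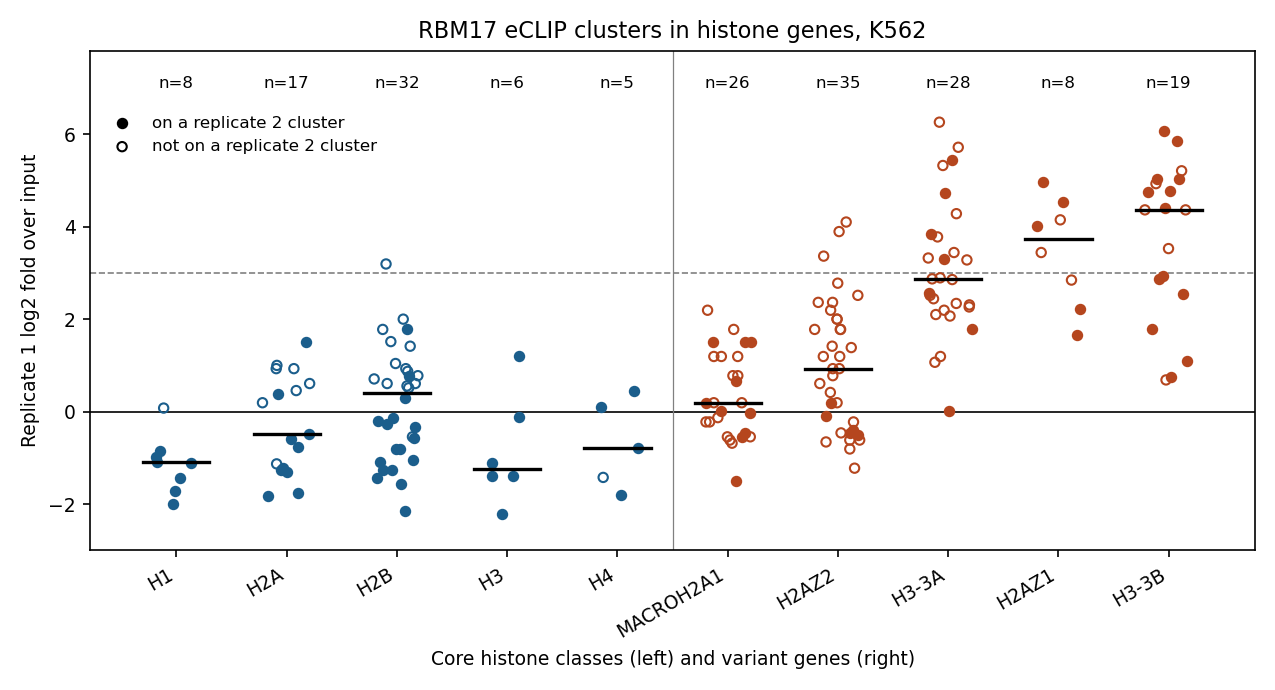
Replicate 1 log2 fold over the input (y axis) of each cluster in the core histone classes (left, blue) and in the variant genes (right, orange), filled where the cluster overlaps a replicate 2 cluster and open where it does not, with n the number of clusters, the bar their median and the dashed line a log2 fold of 3. Among core clusters 1, in H2BC5, lies above that line, while H3-3B, H2AZ1 and H3-3A have many points above it.

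The linker histones H1 bind the DNA between nucleosomes and help to compact it. H1-4 (chr6:26156617-26156824, + strand) had the most replicate 2 reads of the core genes, 335 in 3 clusters of 169, 118 and 48 reads. All 3 of its replicate 1 clusters were below the input, at log2 folds of -1.99, -1.72 and -0.86. H1-2 (chr6:26056046-26056658, - strand) had nearly as many reads, 333 in clusters of 147, 107 and 79, and its 2 replicate 1 clusters were at -1.09 and -1.45. Per kilobase of exon, H1-4 had 426 reads and H1-2 had 456, so both were dense in replicate 2 and under the input in replicate 1. H1-5 and H1-3 had 70 and 24 replicate 2 reads and no replicate 1 cluster. H1-10, the only core member without a stem-loop match, had 33 reads and 2 of 3 replicate 1 clusters below the input. Over the H1 genes 7 of 8 replicate 1 clusters were below, with a median of -1.10.

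H2A and H2B form the dimers on the outer faces of the nucleosome. H2AC11 (chr6:27100839-27101301, + strand) had 256 replicate 2 reads in 5 clusters of 49, 69, 60, 28 and 50 reads, and its 2 replicate 1 clusters were at log2 folds of -1.76 and -1.83. At 519 reads per kilobase of exon it was the densest of the 32 genes. H2AC6 had 175 reads and the most replicate 1 clusters of the core genes, 13 with a median log2 fold of 0.38, and 5 of these were below the input. H2AC13 and H2AC20 each had 1 replicate 1 cluster, in both below the input, and H2AC7, H2AC21 and H2AC25 had none. The H2A genes together had 9 of 17 clusters below the input and a median of -0.48.

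H2BC12 (chr6:27106114-27114608, - strand) had 217 replicate 2 reads. Its 9 replicate 1 clusters ran from -2.15 to 2.00 with a median of 0.60. The 3 that overlapped a replicate 2 cluster were at -1.43, -2.15 and -1.26, and the 6 that did not lay between 0.51 and 2.00, so the fold split by whether replicate 2 had reads there. H2BC11 showed the same split with 1 cluster on a replicate 2 cluster at -1.58 and 5 others between 0.55 and 1.51. H2BC5 had 3 clusters on replicate 2 clusters, all below the input (-0.28, -0.34 and -0.81), and 1 off them at 3.19, the highest fold of any core cluster. That cluster's -log10 p of 1.81 was also the highest among core clusters and below the 3 required for an enriched call. H2BC15, with 87 reads in 12 replicate 2 clusters, had 2 of 6 replicate 1 clusters below the input and did not split in this way, since its clusters on replicate 2 clusters were at 0.30, -0.13 and 0.77. The H2B genes together had 15 of 32 clusters below the input and a median of 0.40, rising to 14 of 17 below among those on a replicate 2 cluster.

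H3 and H4 form the tetramer at the centre of the nucleosome. H3C12 (chr6:27860488-27860836, - strand) had 92 replicate 2 reads in clusters of 49, 30 and 13, and its 3 replicate 1 clusters were at -2.21, -1.40 and -1.40. The first of these was the lowest core value. In H3C4, listed with 123 reads, 2 of 3 clusters were below the input, but its span reaches into H2AC7 on the same strand. Of these reads, 52 lie in 2 clusters that overlap those of H2AC7 (48 reads), and the replicate 1 cluster at -1.11 lies 149 bases from the nearest H2AC7 cluster and 1613 from the next replicate 1 cluster of H3C4. The other 2, at -0.11 and 1.19, lie beyond it. H4C8, with 148 reads, was the 1 core gene whose clusters were all above the input, at 0.11 and 0.45, and is named here because of those values. H4C3 and H4C11 had 3 clusters between them and all were below. The H3 genes had 5 of 6 clusters below the input with a median of -1.25, or 4 of 5 with -1.40 without the cluster beside H2AC7, and the H4 genes 3 of 5 with a median of -0.79.

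Gene by gene, the 26 core genes fell into 11 with every replicate 1 cluster below the input, 9 with at least 1 at or above it and 6 with no replicate 1 cluster. Of the 20 core genes with a replicate 1 cluster, 14 had a median below the input. Among all 8524 genes with a replicate 1 cluster, 1102 had a median below the input and 625 had every cluster below. These counts were 24 and 20 among 50 other protein-coding genes with a single-exon canonical transcript. They were 51 and 7 among 77 cytosolic ribosomal protein genes. When only clusters lying on a replicate 2 cluster were counted, 36 of 44 core clusters were below the input (81.8%, 67.3 to 91.8) with a median of -1.01, beside 17.3% of such clusters in all genes. Of the 24 core clusters that lay off replicate 2 clusters, 3 were below (12.5%) and the median was 0.74, beside 9.02% of such clusters below in all genes. This split was not particular to core genes. In the ribosomal protein genes 77.2% of clusters on replicate 2 clusters were below and 13.3% of those off them. In the other single-exon genes these shares were 67.6% and 43.6%. Among core genes, the share below also differed with the length of the span. In the 19 core genes whose replicate 2 clusters spanned at most 1000 bp, 21 of 24 clusters were below the input (87.5%) and the median was -1.26, while in the 7 with longer spans 18 of 44 were below (40.9%) and the median was 0.42. This difference overlaps with the split above, since 23 of those 24 clusters and 21 of those 44 lay on a replicate 2 cluster. Among clusters on a replicate 2 cluster, the shares below were 87.0% in the short spans and 76.2% in the longer ones. The canonical H2BC12 transcript is 495 bases long and its span 8495 bp, and the 6 clusters off replicate 2 in this gene lie 676 to 3199 bases from the span's 5′ end, further than the transcript is long.

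The replacement histone H3.3 is encoded by H3-3A and H3-3B, which give the same protein and supply nucleosomes at active genes and outside S phase. H3-3B (chr17:73773012-73775817, - strand, identifier ENSG00000132475) had 439 replicate 2 reads in 14 clusters, the 96.9 percentile of all genes with a cluster, and 71.6 reads per kilobase of exon. Its 19 replicate 1 clusters all lay above the input, at log2 folds from 0.68 to 6.06 with a median of 4.36, and 12 of them were enriched, 7 of these on a replicate 2 cluster. The highest -log10 p was 44.9. H3-3B thus had fewer replicate 2 reads per kilobase of exon than H1-4, H1-2 or H2AC11 and a far higher fold over the input in replicate 1.

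The 5 reproducible peaks of H3-3B are given from 5′ to 3′, each with the authors' log2 fold over both replicates. The first, at chr17:73775587-73775634, had 3.93 and the study placed it at a 5′ splice site and in the 5′ UTR. The next, at chr17:73775550-73775586, had 3.78, again at a 5′ splice site, and both lay on 1 replicate 2 cluster of 30 reads. The third, at chr17:73775332-73775384 in a proximal intron and the 5′ UTR, had 6.07 with a -log10 p of 22.1, and was the peak with rank 10 by fold of all 866. It overlapped replicate 1 clusters at 5.84, 6.06 (the highest of the gene) and 5.02, and its replicate 2 cluster had 63 reads. The peak beside it, at chr17:73775279-73775331, had 4.63 with 34 replicate 2 reads. The last, at chr17:73774824-73774877, was the only histone peak placed in coding sequence, with 4.17 and 65 reads. It was also the furthest downstream, with the other 4 peaks in 2 adjacent pairs nearer the 5′ end.

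H2AZ1 encodes H2A.Z, a variant found around promoters. The gene (chr4:100869274-100871406, - strand, identifier ENSG00000164032) had 215 replicate 2 reads in 7 clusters, or 94.7 per kilobase of exon. All 8 replicate 1 clusters were above the input, from 1.66 to 4.96 with a median of 3.72, and 5 were enriched, 3 of them on a replicate 2 cluster. Its 3 reproducible peaks were placed by the study at splice sites with the intron beside them. The 2 upstream ones, chr4:100870681-100870759 at a 5′ splice site and chr4:100870622-100870680 at a 3′ splice site, had log2 folds of 3.37 and 3.84 and lay on the same replicate 2 cluster of 44 reads. The downstream one, chr4:100870297-100870405 at a 5′ splice site, had 4.35 with 35 reads.

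The 5′ splice sites of these genes are shown because 4 of the 9 histone peaks were placed at a 5′ splice site. A proximal intron was also listed for 4, a UTR for 4 and a 3′ splice site for 1, with some peaks under more than 1 region. The paper places most of all its peaks in coding sequence, at 5′ splice sites or in proximal introns, so these counts are not particular to histone genes. The splice sites are read from hg38 at the introns of the GENCODE v44 canonical transcripts. Each shows the last 3 exon bases and the first 6 intron bases, with the GT that opens the intron in capitals. Positions in hg38 and the hg19 peaks are not converted into each other, so no peak is assigned to one of these introns by coordinate.
H2AZ1 intron 1 (chr4:99950162-99950170, - strand): atgGTaaac
H2AZ1 intron 2 (chr4:99949657-99949665, - strand): cagGTcagt
H2AZ1 intron 3 (chr4:99949267-99949275, - strand): gagGTaaat
H2AZ1 intron 4 (chr4:99948805-99948813, - strand): gtgGTatgt
H3-3B intron 1 (chr17:75779651-75779659, - strand): tggGTaggc
H3-3B intron 2 (chr17:75779041-75779049, - strand): cagGTaggt
H3-3B intron 3 (chr17:75778804-75778812, - strand): cagGTaaga
All of these introns are short, from 83 bases (H3-3B intron 2) to 472 bases (H3-3B intron 1), and those of H2AZ1 run from 276 to 427 bases.

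H3-3A (chr1:226250145-226259072, + strand) had 138 replicate 2 reads in 16 clusters of 3 to 17 reads. Its 28 replicate 1 clusters were all above the input, from 0.01 to 6.26 with a median of 2.86, and the top value was the highest of any histone cluster. A total of 11 were enriched, but 4 of these lay on a replicate 2 cluster, and H3-3A had 1 reproducible peak, at chr1:226254001-226254066, with a log2 fold of 3.55 and 13 replicate 2 reads, which the study placed in a 3′ UTR. The cluster at 6.26 overlapped no replicate 2 cluster. Of the 50-base words of the canonical H3-3A transcript, 72.7% also occur in transcripts of other genes, against 8.28% for H3-3B and 7.34% for H2AZ1, and how reads that match several genes were handled is not given in the sources used here.

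The other variant genes had no reproducible peak. H2AZ2, which encodes a second form of H2A.Z (chr7:44869156-44887616, - strand), had 145 replicate 2 reads and 35 replicate 1 clusters from -1.23 to 4.10, with a median of 0.93, 11 below the input and 2 enriched, neither on a replicate 2 cluster. MACROH2A1 encodes macroH2A1, a variant with a large extra domain that is common on silent chromatin. This gene (chr5:134670244-134734886, - strand) had 197 reads in 29 replicate 2 clusters, and 26 replicate 1 clusters from -1.51 to 2.19 with a median of 0.19, of which 11 were below and 0 enriched. H2AX, whose product is phosphorylated at DNA breaks, had 15 replicate 2 reads in 1 cluster and no replicate 1 cluster. The order of replicate 1 medians was thus H3-3B, H2AZ1, H3-3A, H2AZ2 and MACROH2A1. The clusters of H3-3B (0.68 to 6.06) and H2AZ1 (1.66 to 4.96) overlapped widely, as did those of H2AZ2 and MACROH2A1. Without H2AZ2 and MACROH2A1, a choice made after their values were seen, 0% of the variant clusters were below the input, 50.9% were enriched and the median was 3.31.

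**Figure D2:**
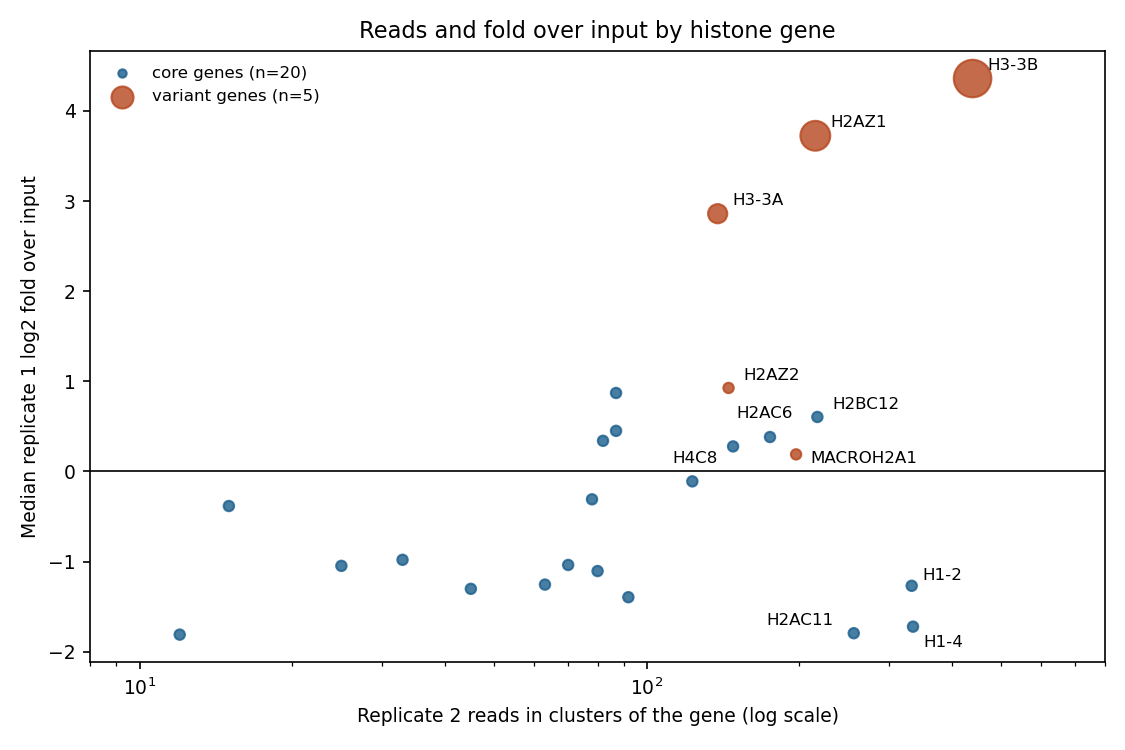
Replicate 2 reads per gene (x axis, log scale, not divided by length) against the median replicate 1 log2 fold over the input (y axis) for the 20 core and 5 variant genes with clusters in both replicates, with larger points for genes with more reproducible peaks. H1-4, H1-2 and H2AC11 have 256 to 335 reads and lie below 0, while H3-3B with 439 reads lies at 4.36.

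Along 4 variant genes the median fold was higher on the 5′ side. In H2AZ2, the 18 clusters on the 5′ side of the span's midpoint had a median log2 fold of 1.59 with 1 below the input, and the 17 on the 3′ side had -0.23 with 10 below. The medians were 0.98 and -0.18 in MACROH2A1, 3.10 and 2.25 in H3-3A, and 4.08 and 2.53 in H2AZ1, whose 3′ side held 2 clusters. This measure was chosen after the values were seen, and in H3-3B a single cluster lay on the 3′ side, so no value was taken. Over the 4112 genes with at least 8 replicate 1 clusters and at least 2 on each side, the 5′ side had the higher median in 52.2%, and the middle 50% of differences ran from -0.42 to 0.62. A difference as large as that of H2AZ2 was seen in 3.40% of those genes and one as large as those of H2AZ1, MACROH2A1 and H3-3A in 5.40%, 10.1% and 17.9%. H2AC6, the 1 core gene with enough clusters, went the other way, from -0.48 on the 5′ side to 0.49 on the 3′ side.

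**Figure D3:**
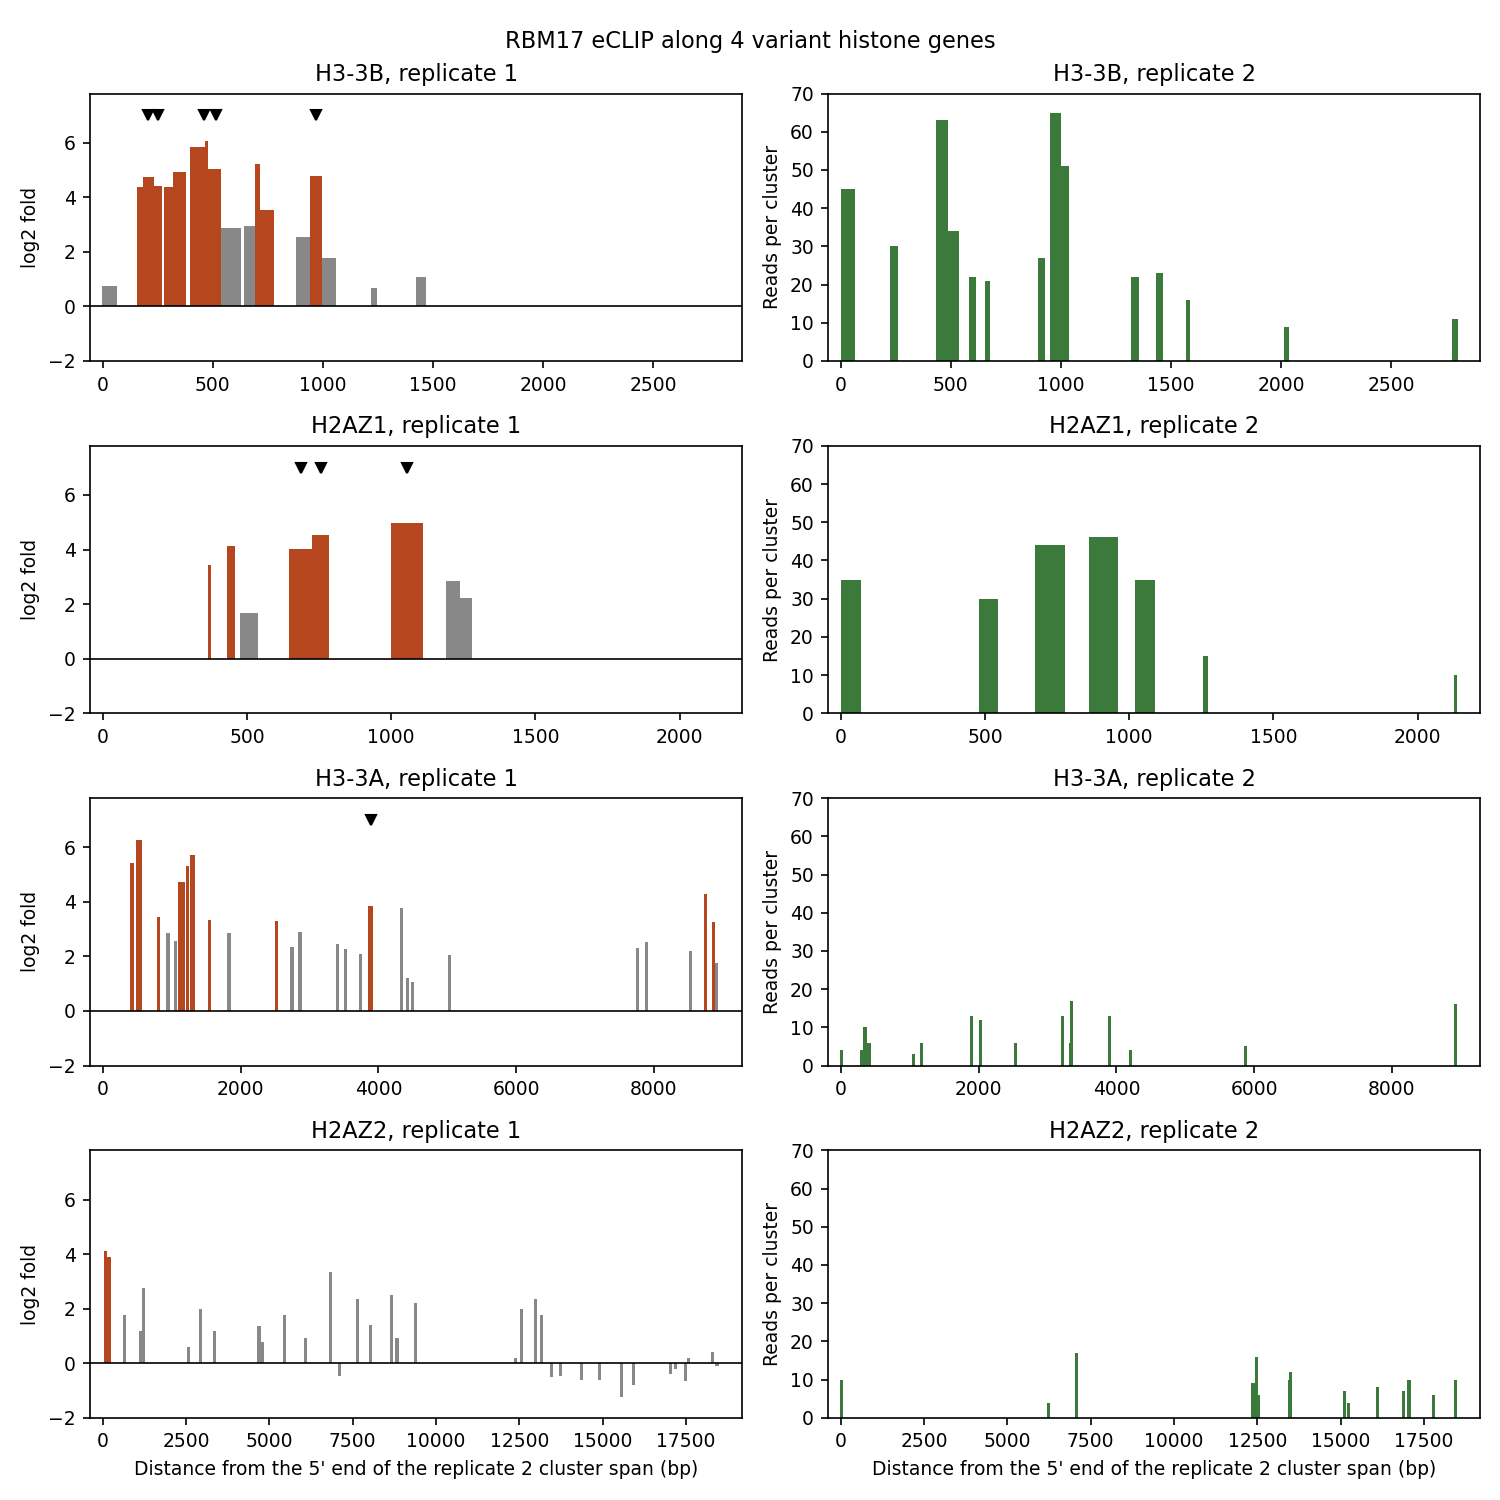
Replicate 1 log2 fold over the input (left, orange for enriched clusters, grey for others, black triangles for reproducible peaks) and replicate 2 reads per cluster (right, green) in H3-3B, H2AZ1, H3-3A and H2AZ2, against the distance in bp from the 5′ end of the span of replicate 2 clusters, with narrow clusters drawn wider than they are. The peaks lie in H3-3B (5), H2AZ1 (3) and H3-3A (1), and in H2AZ2 most clusters below 0 lie towards the 3′ end.

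The core and variant values are set here beside those of other gene groups. Among 94 other protein-coding genes with a single-exon canonical transcript, 126 of 228 replicate 1 clusters were below the input (55.3%, 48.6 to 61.8), with a median of -0.23, and 1 gene had a reproducible peak (1.06%). Among 78 cytosolic ribosomal protein genes, whose short mRNAs are abundant but spliced, 548 of 940 clusters were below (58.3%, 55.1 to 61.5) with a median of -0.36, yet 113 were enriched (12.0%) and 12 genes had a peak (15.4%). On replicate 2 clusters, the shares below were 67.6% and 77.2% in these groups beside 81.8% in core histone genes. The core share below the input over all clusters lay within the intervals of both groups. On replicate 2 clusters the core share lay above the upper limits of both (76.1% and 80.3%), while its own interval, 67.3 to 91.8, held both shares. The interval for enriched core clusters, with its upper limit of 5.28%, lay below the ribosomal protein interval of 10.0 to 14.3 and overlapped the single-exon interval of 0.716 to 5.04. Of the 3148 genes with at least as many replicate 2 reads as the core median of 74, 13.0% had a peak and 12.1% of their clusters were below the input. The variant share enriched, 25.9%, exceeded the 6.47% of this last group, but 17 of the 30 enriched variant clusters lay in H2AZ1 and H3-3B. All these intervals treat the clusters of a gene as independent, so their overlap or separation does not test the groups.

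**Figure D4:**
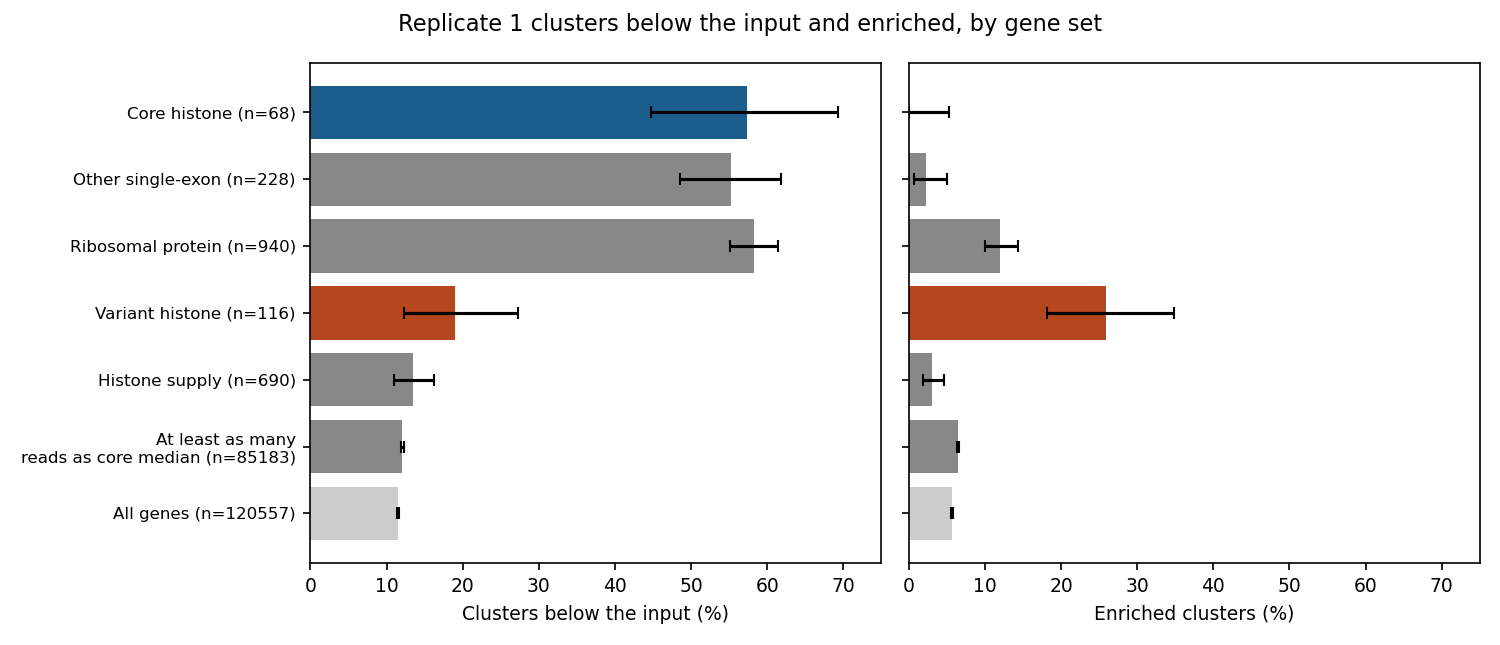
Share of replicate 1 clusters below the input (left, percent) and enriched (right, percent) in core and variant histone genes and the comparison groups, with n the number of clusters and 95% Clopper-Pearson bars that cover counting error only. Core histone, single-exon and ribosomal protein genes sit between 55.3% and 58.3% below the input and variant genes at 19.0%, while variant genes have the highest share enriched, 25.9%.

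The replicates overlapped in part. Of the 184 replicate 1 clusters in histone genes, 84 (45.7%, 38.3 to 53.1) shared at least 1 base with a replicate 2 cluster on the same strand, beside 29.9% of those in all gene spans. In the other direction, 81 of 165 replicate 2 clusters (49.1%) overlapped a replicate 1 cluster, beside 31.9% overall. In this second direction the share was 53.7% (42.3 to 64.7) for core and 44.6% (33.7 to 55.9) for variant genes, a difference within their counting intervals. Of the replicate 1 clusters, 44 of 68 in core genes (64.7%) and 40 of 116 in variant genes (34.5%) lay on a replicate 2 cluster. On the opposite strand, the spans of the histone genes held 2 replicate 1 clusters.

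The genes that process, degrade and chaperone histones and their mRNAs had folds mostly above the input. Of a list of 36 such genes 35 had a replicate 2 cluster, the exception being DAXX, and 2 had a reproducible peak (5.71%, beside 4.07% of all genes). Their 690 replicate 1 clusters had a median log2 fold of 1.19 (95% interval 1.19 to 1.41), under the 1.51 of the whole file. Of these clusters 93 were below the input (13.5%, beside 11.5% in all gene spans) and 21 enriched (3.04%, 1.89 to 4.61, beside 5.64%). UPF1, the helicase of nonsense-mediated decay that also acts in histone mRNA decay, had 223 replicate 2 reads, and 37 replicate 1 clusters with 0 below the input, 10 enriched and a median of 2.51. Its peak, at chr19:18963179-18963249 on the + strand, had a log2 fold of 3.86 and was placed at a 5′ splice site and in the intron beside it. NAP1L4, a chaperone of H2A and H2B, had 513 reads and 64 clusters with a median of 1.77. Of these, 5 were enriched and 2 below the input, with a lowest value of -4.62, the lowest of the list. NAP1L4 also had a peak at chr11:2993985-2994037 on the - strand with a log2 fold of 3.27, placed in proximal and distal intron. Its relative NAP1L1 had the most reads, 637, but 22 of 43 clusters below the input and a median of -0.03. NASP, which carries H1 and H3-H4, had 505 reads and a median of 1.13, HIRA, the H3.3 chaperone, had 387 and 0.93, and SUPT6H had 339 and 1.77. SLBP, which binds the stem-loops printed above, had 42 reads and 11 clusters with a median of 1.19, and the 10 genes for 3′ end processing had 0 peaks.

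The reach of the symbol rule was limited by identifiers. Of the 74 annotated core genes, 34 carry an Ensembl identifier above the highest one in the replicate 2 list and 0 of these had a cluster, so they could not be matched, and all 26 core members are among the other 40. Near-identical copies add a further limit: in H4C11, H2AC13, H2BC18 and H2BC12 between 57.2% and 92.1% of the transcript's 50-base words also occur in other genes, while the median over core genes was 2.25%.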

How the data were processed

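RBM17 eCLIP and 1 size-matched input were sequenced from K562 cells, and the cluster lists of both eCLIP replicates and the list of reproducible peaks were used. The authors trimmed reads with cutadapt, aligned them with STAR and called clusters with the eCLIP pipeline v0.4.0 (versions of cutadapt and STAR, build and annotation not given in the sources used here). Titles in GEO number the eCLIP libraries rep2 and rep3, and the replicate numbers here follow the descriptions, eCLIP1 and eCLIP2. The deposited replicate 1 list holds, per cluster, a log2 fold and a -log10 p against the input. The deposited replicate 2 list holds the caller's p-value, with a read count in the cluster name. The deposited peak list holds 1 log2 fold and 1 -log10 p per peak, for the replicates jointly.

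Genes were matched by Ensembl identifier (10423 of 10872 in GENCODE v44), and replicate 1 clusters and peaks were assigned by same-strand overlap of at least 1 base with the span of a gene's replicate 2 clusters. Shares and medians were computed in Python 3.11.15 (pandas 2.3.3, numpy 2.4.6, scipy 1.17.1) and checked on simulated data, and figures were drawn with matplotlib 3.10.9. Reads per kilobase used the union of annotated exons. Without read totals for replicate 1 or the input, their depth is unknown. The members and lists were chosen with earlier results of these data known. Genes named are those with a peak, the variants, the 5 core genes with most replicate 2 reads and the 5 with most replicate 1 clusters, those of the highest and lowest folds, and, of the histone supply list, those with a peak and the 5 with most reads. Others were named after their values were seen. The alternatives tried were other thresholds, spans, overlaps, weights and cluster choices.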

Additional observations from a re-analysis of the deposited data

How the results depend on the processing

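Of 66 recomputed values, 45 stayed within the counting interval or within 1.5 times of the reported one and none changed sign. Those 45 include values that moved far within a wide interval or changed unit. Median replicate 2 reads per gene were 74 in core and 171 in variant genes. At a cluster p of at most 1e-10 these medians became 47 and 33, and per kilobase of exon 85.5 and 28.4, so the order of the groups reversed. Some of the 45 could not have moved. Core counts of 0 peaks and 0 enriched clusters stay 0 by construction at stricter thresholds or in a subset of the same clusters. The core share below the input of 57.4% became 81.8% for clusters on a replicate 2 cluster, 87.5% in genes with spans up to 1000 bp and 100% as a median over genes, and the core median of -0.41 became -1.01, -1.26 and -1.01. The variant share below of 19.0% became 0% without MACROH2A1 and H2AZ2, 0% among clusters with -log10 p of at least 3 (by construction, since every cluster below the input has 0) and 0% as a median over genes, with medians of 3.31, 4.01 and 2.86 in place of 1.77. The variant share enriched of 25.9% became 35.0% on replicate 2 clusters, 50.9% without those 2 genes, 17.2% at log2 fold 4 and -log10 p 5, and 39.3% as a median over genes. The settings by span, without the 2 genes and without H3C4 and H2AC7 (core share 56.9%) were chosen after seeing the data. Genes of the histone supply list with a peak went from 2 to 0 at a log2 fold of at least 4 and to 0 at a -log10 p of at least 5. An overlap of 50% of the cluster gave 35.9% in place of 45.7% for replicate 1 and 40.0% in place of 49.1% for replicate 2, and a p of at most 0.001 in both replicates gave 10.6% for replicate 2. Without replicate 1, 32 genes count in place of 25, by construction, since each gene was chosen for having a replicate 2 cluster. Leaving out replicate 2 was not possible, since it defines the genes, and no core cluster had a -log10 p of at least 3, so that setting gave no core value. No paired analysis was possible because there is 1 input and the 2 replicates carry different measurements.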

Other observations

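On chromosome 6, over hg19 positions 25956046 to 27960836, the replicate 2 list also names 20 genes whose identifiers are not in GENCODE v44. They had 32 replicate 2 clusters with 1017 reads, from 4 to 230 per gene, and 0 reproducible peaks. Of their 20 replicate 1 clusters, 17 were below the input and 0 enriched, with a median log2 fold of -1.11. What these genes are was not tested, and 19 of the 32 histone genes lie on this chromosome.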
